A study of Mus musculus with 6 samples.

Results

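The control cultures of this study were mouse CD4 T cells grown towards a regulatory T cell (Treg) fate and infected with a retrovirus carrying a construct named bHLH-ER. They were chosen by their sample titles, and they make up 3 of the 6 arrays of the series. Lymph nodes of C57BL/6 mice gave the CD4+CD25- starting cells. They were stimulated for 2 days on plates coated with anti-CD3 (2 µg/ml) and anti-CD28 (1 µg/ml). The medium held 5 ng/ml of TGF-β1 together with 200 U/ml of IL-2. The virus was added on day 1, and infected cells were sorted by CD4 and the virus marker Thy1.1. They then spent 6 hours on the same antibodies with IL-2 and 1 µM tamoxifen, and TGF-β1 is listed for the first phase only. Cultures 1, 2 and 3 (control replicates 1, 2 and 3) were independent experiments. The mice were 7 weeks old for culture 1, 8 for culture 2 and 9 for culture 3, and each sample pooled 3 mice, except culture 3, which pooled 4. Age and experiment cannot be told apart here, and for culture 3 neither can pool size. The labels and design text do not describe the bHLH-ER construct further. Cells without virus, tamoxifen, stimulation or TGF-β1 were not analysed here, so every level below is that of cells that had all of these.

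T cells that are stimulated through the T cell receptor (TCR) and CD28 leave rest, grow, switch to rapid sugar use and divide. Added TGF-β signals through SMAD proteins and, together with IL-2 acting through STAT5, can induce Foxp3, the transcription factor that defines Treg cells. E proteins are transcription factors of the basic helix-loop-helix (bHLH) class that bind E-box DNA, and Id proteins pair with them and keep them off DNA.

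The Affymetrix arrays gave 1 intensity per probe set, taken here as log2. Each of 18193 genes was represented by its brightest probe set over the 3 control arrays, and a level is the mean log2 intensity of the 3 cultures. Its percentile is its rank among those genes, so a gene at the 90th percentile has a level of 10.35. Probe sets bind with different strength, so percentiles place a signal on the array and do not order genes by RNA amount. Of 238 list genes above the chemosensory level described below that have several probe sets, 101 had their dimmest probe set at or below it. Where 3 values are given in a row, they are log2 levels in cultures 1, 2 and 3, in that order. Arrays carry no detection call here, and a reference was made from 73 olfactory, vomeronasal and bitter taste receptor genes. Their median level was 3.61, their 95th percentile 5.48 and their highest mean 6.75 (Vmn1r44). Of all genes, 10415 (57.2%) lay above 5.48, here called the chemosensory level, and 7979 lay above 6.75. Counts of list members above that level are to be read beside 57.2%. Of genes above it, 2.46% were spread at least 2-fold (a range of at least 1 log2 unit), the share for counts of spread members. The chemosensory level is no strict test. Of 19 measured markers of liver, muscle, pancreas, testis and other organs, 6 also lay above it, reaching 6.35 for Ins2 and 6.28 for Prm1. Signals between 5.48 and 6.75 are therefore close to those of genes that T cells are not known for.

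**Figure D1:**
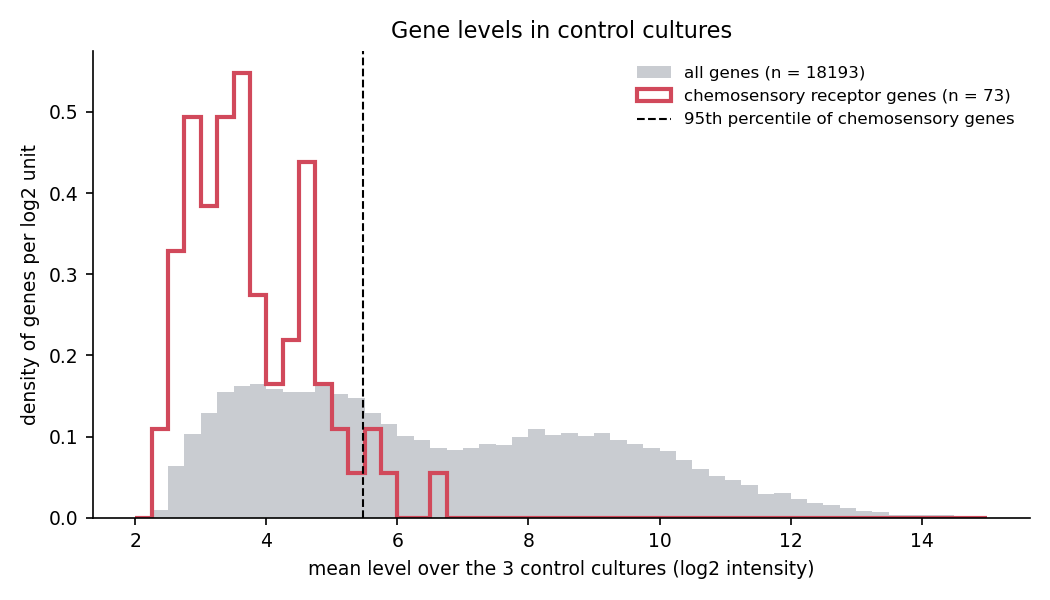
Distribution of mean levels in control cultures on a log2 axis, as density, for all 18193 genes (grey) and for the 73 chemosensory receptor genes (red outline); the dashed line is at 5.48. The receptor genes gather at the dim end, with a median of 3.61, while the whole set of genes reaches 14.60.

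The brightest named genes were those of protein synthesis and the cytoskeleton. The 12 highest were Tpt1, Actb, Rpl37a, Tmsb10, Rplp0, Rpl41, Rplp2, Rps29, Rpsa, Rps2, Eef1a1 and Rps24. Of these, 8 encode ribosomal proteins by their names, Eef1a1 encodes a translation elongation factor, and Actb and Tmsb10 encode actin and an actin-binding thymosin. Their levels ran from 14.38 to 14.60. The arrays resembled each other closely across genes (Pearson's r of 0.997 for cultures 1 and 3, 0.994 for 1 and 2 and 0.993 for 2 and 3, a description over genes that share arrays and probe design). A typical gene above the chemosensory level had an SD of 0.13 over the 3 cultures and a range of 0.24 log2 units.

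The cells carried the signals of T cells. All 17 measured genes of the CD4 T cell and TCR list lay above the chemosensory level, with a median percentile of 90.7, against 57.2% of all genes above that level. Ptprc, which encodes the pan-leukocyte phosphatase CD45, had 13.55, 13.45 and 13.48, and Cd3d, a CD3 chain gene, and Cd2, an adhesion receptor gene, had means at percentiles 98.8 and 98.1. Cd3e, another CD3 chain, had 9.18, 9.32 and 8.96, with its mean at the 79.4th percentile. Cd4, the coreceptor by which the cells were sorted, had 8.21, 7.90 and 8.09, and its dimmer probe set averaged 5.79. Thy1, whose Thy1.1 form is the virus marker, had 12.05, 12.19 and 11.59, with culture 3 below the other two. The lowest members were Cd27, a costimulatory receptor (67.7th percentile), Themis, a TCR signalling adaptor (64.5th), and Txk, a Tec family kinase (62.8th). Txk was at 7.29, 8.27 and 7.00, highest in culture 2.

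Markers of other cell types were mostly dim. Of B cell markers 0 of 10 had a mean above the chemosensory level, of erythroid markers 0 of 3, of dendritic cell markers 1 of 5, of NK cell markers 1 of 4, of epithelial markers 1 of 5, of myeloid markers 2 of 12 and of stromal and endothelial markers 3 of 9. The CD8 chain genes Cd8a (6.21, 6.68 and 5.79) and Cd8b1 (6.69, 6.73 and 6.40) lay below 6.75, the mean of the brightest chemosensory gene, in every culture, though Vmn1r44 itself was at 6.41, 6.91 and 6.92. Among the markers above the level were Csf1r (6.64, 6.72 and 6.75), a macrophage growth factor receptor, and Klrc1 (6.40, 7.03 and 6.05), which encodes the NK receptor NKG2A. Pdpn, a mucin-type surface protein used here as a stromal marker but also made by activated T cells, was at 9.86, 7.02 and 10.19, while the stromal collagen genes Col1a1 and Col3a1 had means of 4.73 and 2.85.

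Among helper lineage factors, 21 of 23 measured genes lay above the chemosensory level (57.2% of all genes), with a median percentile of 70.0. The brightest were Cbfb (11.88, 11.99 and 11.85), the shared partner of RUNX factors, Irf4 (11.66, 11.42 and 11.76), an activation-induced factor, and the lymphoid factor gene Ikzf1 (11.51, 11.46 and 11.46). A second Irf4 probe set averaged 7.41, and with the median probe set of a gene the Irf4 percentile was 76.6 in place of 96.4. The dimmest were Prdm1, which encodes Blimp-1 (18.6th percentile), Spi1, the myeloid factor PU.1 (40.0th), and Bcl6, the factor of follicular helper cells (50.2nd). Bcl6 had 5.91, 6.65 and 5.78, and its second probe set averaged 4.57.

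Foxp3 lay at 6.42, 8.16 and 6.29. Culture 2 stood 1.74 and 1.87 log2 units above cultures 1 and 3, so the highest culture had 3.66 times the intensity of the lowest. On culture 2 the gene ranked at the 69.3rd percentile, and on cultures 1 and 3 at the 53.3rd and 52.0th, where its signal was below 6.75, the mean of the brightest chemosensory gene. In culture 1 that gene, Vmn1r44, was itself at 6.41, level with Foxp3. Its SD of 1.04 stood at the 99.6th percentile among genes above the chemosensory level. Without culture 2 the Foxp3 range over the cultures was 0.13 log2 units. The gene has 1 probe set here, so no other probe set checks this value. Its rank depends on the rule for other genes. The mean level was at the 57.9th percentile, but at the 68.4th with the mean of all probe sets and the 72.6th with the median probe set. In bulk RNA, fewer cells of a type and less RNA per cell cannot be told apart.

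Other main lineage factors spread less on their brightest probe sets. Tbx21, the Th1 factor T-bet, had 6.82, 6.46 and 6.53, and Gata3, the Th2 factor, had 8.26, 8.42 and 8.13, with SDs of 0.19 and 0.15. Batf, an AP-1 partner of Irf4, was lowest in culture 2 (9.55, 8.93 and 9.82). Ikzf2, which encodes Helios, a factor linked to thymic Treg cells, lay at 9.72, 9.50 and 9.24. A second Ikzf2 probe set gave 6.74, 5.79 and 4.65, a range of 2.09, and with the median probe set of a gene the Ikzf2 percentile was 59.0 in place of 82.6. Genes of the list spread at least 2-fold, meaning a range of at least 1 log2 unit, numbered 3 of 21 above the level, against 2.46% of all such genes. These were Foxp3, Gfi1, a transcriptional repressor (5.64, 7.26 and 5.54), and Ikzf3, which encodes Aiolos (7.21, 8.20 and 6.83), each highest in culture 2. Eomes, a T-box factor of cytotoxic cells (6.21, 7.21 and 6.57), lay at the edge of that limit.

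The Treg signature as a whole was bright, with 26 of 29 measured members above the chemosensory level (57.2% of all genes) and a median percentile of 81.6. Receptors of the TNF family led it. Tnfrsf4 (13.26, 13.12 and 13.47) encodes OX40 and Tnfrsf18 (12.86, 12.55 and 12.77) encodes GITR, and both costimulatory receptors also appear on activated T cells that are not Treg cells. Ctla4, the inhibitory receptor that competes with CD28, had 11.44, 11.33 and 11.68. Il2ra, the IL-2 receptor chain CD25 that the starting cells had been selected to lack, had 11.25, 11.29 and 10.89, so all 3 cultures were within 0.40. Nrp1, a semaphorin receptor, had 10.40, 10.40 and 10.27 on the brightest of 4 probe sets. The next Nrp1 probe sets ranged over 0.19 and 0.12 log2 units, and the dimmest over 1.19 (7.86, 7.09 and 6.68). Itgae, the integrin chain CD103 that TGF-β can induce, was dim at 6.10, 6.38 and 5.88. The lowest were Fgl2 (11.5th percentile), Entpd1, the ectonucleotidase CD39 (29.5th), and Klrg1 (31.3rd), none above the chemosensory level.

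Members of the signature took different orders across the cultures. Of the 26, 7 were spread at least 2-fold, beside 2.46% of all genes above the level. Gpr83, a receptor gene typical of Treg cells, was highest in culture 2 (7.56, 10.06 and 6.97, an 8.53-fold range), and its other probe set gave 7.66, 9.88 and 6.45. Izumo1r, the folate receptor family gene FR4, shared that order (7.98, 8.93 and 7.60). Ebi3, a subunit of IL-35 and IL-27, had the opposite order, with 10.06, 7.75 and 10.29, and so did the activation marker gene Cd83 (11.01, 9.97 and 11.15). Nt5e, the ectonucleotidase CD73, was at 9.86, 10.50 and 9.49, and Il12a, the other subunit of IL-35, at 4.97, 5.72 and 6.15, around the chemosensory level. Of the 26 members above the level, 11 were highest in culture 2 (30.7% of all genes) and 10 were lowest there (44.7%).

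**Figure D2:**
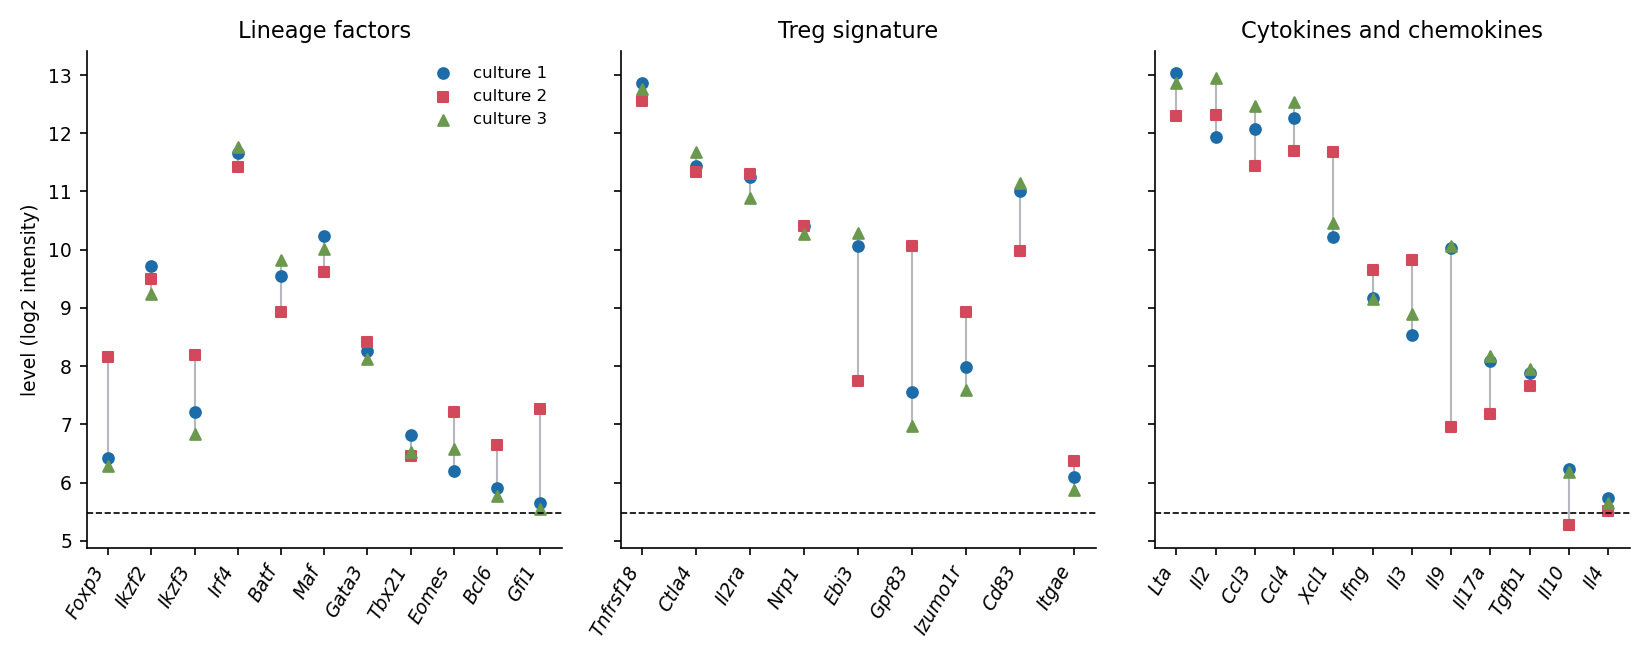
Log2 level of named genes in culture 1 (circles), culture 2 (squares) and culture 3 (triangles), in panels for lineage factors, the Treg signature and secreted factors; the grey line joins the lowest and highest culture and the dashed line is at 5.48. Foxp3 and Gpr83 are highest and Ebi3 and Il9 lowest in culture 2, while Irf4, Ctla4 and Nrp1 differ less.

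Lymphotoxin and IL-2 led the cytokine genes, and those of Th2 cells were dim. In the T helper cytokine list 17 of 20 measured genes lay above the chemosensory level (57.2% of all genes), with a median percentile of 69.1. Lta, which encodes lymphotoxin-α, had 13.03, 12.30 and 12.87. Il2, the T cell growth factor, had 11.93, 12.32 and 12.96, so culture 3 had 2.04 times the intensity of culture 1. Csf2 (GM-CSF) had 9.71, 9.52 and 9.90. Ifng, the Th1 cytokine, had 9.17, 9.65 and 9.15 and lay at the 81.2nd percentile. Tgfb1 itself had 7.88, 7.66 and 7.95. The Th2 cytokine genes Il4 (5.74, 5.51 and 5.64) and Il13 (5.64, 5.48 and 5.85) lay at the chemosensory level, and Il5 was at the 8.48th percentile, near Il6 at the 5.07th and below Il21 at the 17.2nd. Il10, an anti-inflammatory cytokine, had 6.24, 5.27 and 6.18. With all probe sets of each gene averaged in place of the brightest, percentiles of Il4 and Il10 were 51.2 and 54.8 in place of 44.7 and 47.8. Neither gene has a further probe set, so their own levels stayed the same and only the genes ranked around them changed.

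Il9, a cytokine that TGF-β and IL-4 can induce together, spread most among the listed cytokine and chemokine genes. It had 10.04, 6.95 and 10.06, an 8.58-fold range in which cultures 1 and 3 differed by 0.02. Il17a, the Th17 cytokine, was also lowest in culture 2 (8.09, 7.18 and 8.17), and Il3, a growth factor of myeloid cells, was highest there (8.54, 9.83 and 8.89). Spread at least 2-fold were 5 of 17 list genes above the level, Il9, Ebi3, Il3, Il12a and Il2 (2.46% of all such genes). Lowest in culture 2 were 11 of 17 (44.7% of all genes).

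TNF family ligands were all above the chemosensory level, 12 of 12 (57.2% of all genes). Besides Lta, the brightest were Tnfsf11, which encodes RANKL (12.27, 11.79 and 12.51), and Ltb, lymphotoxin-β (12.21, 12.53 and 11.77). The dimmest were Cd40lg, the helper ligand CD154 (5.53, 5.43 and 5.75), Tnfsf10, the death ligand TRAIL (7.68, 8.32 and 6.96), and Cd70, the ligand of CD27 (8.16, 6.82 and 8.55). Cd70 and Tnfsf10 were the 2 spread at least 2-fold (2.46% of all genes above the level), in opposite orders. Lowest in culture 2 were 9 of the 12 (44.7% of all genes). Fasl, the death ligand of cytotoxic cells, was lowest in culture 1 (9.01, 9.68 and 9.79).

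Of the chemokine genes 9 of 17 lay above the chemosensory level, a share near that of all genes (57.2%). Ccl4 (12.26, 11.70 and 12.54) and Ccl3 (12.08, 11.43 and 12.47), inflammatory chemokines, were lowest in culture 2, and Ccl3 had a range of 1.03. Xcl1, lymphotactin, was highest in culture 2 by at least 1.23 (10.23, 11.68 and 10.45). Ccl5, another inflammatory chemokine, was near the chemosensory level at 6.59, 5.95 and 5.60. Cxcl9 (4.33rd percentile), Cxcl3 (9.28th) and Cxcl11 (18.1st) were the lowest. Of the other interleukin genes 4 of 11 were above the level, led by Il16 (81.1st percentile), Il1a (7.63, 7.12 and 8.11) and Il23a (5.60, 5.80 and 6.09), and the lowest were Il33, Tslp and Il15 (2.80th, 4.28th and 7.31st).

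On their brightest probe sets, the IL-2 and TGF-β receptor genes named here ranged over at most 0.40 log2 units. The median range of genes above the chemosensory level was 0.24. Of 32 measured cytokine receptor genes 25 lay above the chemosensory level (57.2% of all genes), with a median percentile of 68.1. Il2rb, the IL-2 receptor β chain, had 9.16, 9.15 and 9.04. Tgfbr2, the TGF-β receptor that binds ligand, had 9.61, 9.83 and 9.69, and its other probe sets averaged 6.07 and 2.80. With the median probe set of a gene the Tgfbr2 percentile was 63.5 in place of 84.8. Tgfbr1, its signalling partner, had 11.06, 11.12 and 10.79. The Tgfbr1 value rests on 1 of 3 probe sets, since the others averaged 4.80 and 3.96, and with the median probe set its percentile was 44.3 in place of 93.8. Crlf2, the TSLP receptor chain, came after Il2ra and Tgfbr1 in the list (85.2nd percentile). Lower down, Il4ra (8.37, 8.70 and 8.50), Il6ra (8.50, 8.66 and 8.51) and Il7r (8.27, 7.53 and 7.95), encode chains of the IL-4, IL-6 and IL-7 receptors.

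Il12rb2, the chain that makes cells respond to IL-12, was below the chemosensory level in every culture (4.61, 4.56 and 4.91), while its partner Il12rb1 was at 8.41, 7.24 and 8.20. The lowest receptor genes were Il9r (5.81st percentile), Il13ra1 (17.7th) and Csf2rb (17.9th), so the Il9 signal stood beside a dim Il9r. The genes spread at least 2-fold were 3 of 25 (2.46% of all genes above the level). These were Il18r1 (9.30, 10.29 and 8.77), Il12rb1 and Ifngr1, the ligand-binding chain of the IFN-γ receptor (8.23, 9.19 and 8.17). Highest in culture 2 were 16 of the 25 (30.7% of all genes).

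Of the chemokine receptors 8 of 16 lay above the chemosensory level (57.2% of all genes), with a median percentile of 41.0. Only Ccr6 and Ccr7 were in the top 10% of genes. Ccr6, the receptor of CCL20 that marks Th17 and some Treg cells, had 11.56, 10.30 and 11.81, and it was the 1 member spread at least 2-fold. Its ligand gene Ccl20 was also lowest in culture 2 (10.75, 10.12 and 10.66). Ccr7, which guides T cells in lymph nodes, was lowest in culture 1 (10.68, 11.47 and 11.46). Cxcr6 (8.02, 7.95 and 8.14) was next. Cxcr3, a Th1 receptor (6.78, 6.69 and 6.78), and Ccr8, a Treg and Th2 receptor (6.82, 6.65 and 7.03), lay near 6.75. The lowest were Ccr3, Ccr1 and Xcr1 (6.44th, 8.15th and 9.42nd percentile).

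Adhesion genes showed the same unevenness. Of 13 measured, 11 lay above the chemosensory level, led by Cd44 (11.75, 11.72 and 11.97), Itgb2 (11.62, 11.70 and 11.65) and Itgal (11.76, 11.32 and 11.63), the hyaluronan receptor and the chains of LFA-1. Itgb7, a chain of the gut-homing integrin, was highest in culture 2 (7.87, 8.65 and 7.40), and S1pr3, a sphingosine 1-phosphate receptor, was lowest there (8.42, 6.88 and 8.86). These were the 2 members spread at least 2-fold. S1pr1, the receptor for leaving lymph nodes, had 6.41, 6.75 and 6.39. Itga1 and Itgb8 were lowest (7.18th and 8.75th percentile).

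Of the costimulators and checkpoints 19 of 20 lay above the chemosensory level, with a median percentile of 86.2 and only Havcr2, the checkpoint TIM-3, below it (4.55, 5.07 and 4.58). Behind Tnfrsf4 and Tnfrsf18, the brightest was Btla, an inhibitory receptor (12.34, 11.72 and 12.13). Pdcd1, which encodes PD-1, had 10.37, 9.59 and 10.32. Lag3, a checkpoint that binds MHC class II, was dim at 6.72, 6.30 and 6.57, and Cd86 was at 6.18, 5.41 and 6.33. Lowest in culture 2 were 14 of 19 (44.7% of all genes). Those spread at least 2-fold were Cd27, highest in culture 2 (8.00, 8.73 and 7.35), and Cd80, lowest there (9.81, 9.01 and 10.16).

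By the median, E protein and Id protein genes differed between cultures about as much as other genes. Their median SD was 0.12 over members above the chemosensory level (0.13 over all such genes). Single members varied, with ranges from 0.03 log2 units for Tcf3 to 0.50 for Id2 and 0.70 for Tcf4. The median range of genes above the level was 0.24. Of 7 measured genes 6 lay above the chemosensory level (57.2% of all genes), and the median percentile was 77.0. Of the 6, 0 were spread at least 2-fold, near the share of all genes above the level (2.46%). Tcf3, which encodes the E proteins E12 and E47, had 8.91, 8.94 and 8.91, and its SD was 0.02. Tcf12, which encodes HEB, had 10.70, 10.84 and 10.68 on the brightest of 5 probe sets. The other Tcf12 probe sets averaged from 4.34 to 9.13, and with the median probe set of a gene the Tcf12 percentile was 65.6 in place of 92.5. Tcf4, which encodes E2-2, was dim at 6.35, 5.66 and 5.98. The other Tcf3 probe sets averaged 7.17 and 6.05.

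The inhibitors were present beside them. Id3 had 10.36, 10.25 and 10.38, and Id2 had 9.93, 9.48 and 9.43, with culture 1 above the other two. A second Id2 probe set showed the same order (9.53, 9.10 and 8.97). Id1 had 8.47, 8.32 and 8.17, a range of 0.30. Id4 was the 1 member below the chemosensory level (3.55, 3.71 and 3.40).

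Among 25 other bHLH genes, 16 lay above the chemosensory level, a share near that of all genes (57.2%). Bhlhe40, induced by TCR signals, had 11.69, 11.21 and 12.01, and Hif1a, the oxygen-sensing factor that also drives glycolysis, had 11.23, 11.52 and 11.26. Mycn (11.54, 11.44 and 10.84) and Myc (10.72, 10.97 and 10.82), transcription factors of the Myc family, were bright, as was their partner Max (75.1st percentile). The haematopoietic factor gene Tal1 (12.7th), Twist1 (14.0th) and Msc (24.3rd) were lowest. Genes spread at least 2-fold were Tal2 (7.95, 6.61 and 8.16) and Mxd3, a Max partner (6.64, 7.53 and 6.16).

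**Figure D3:**
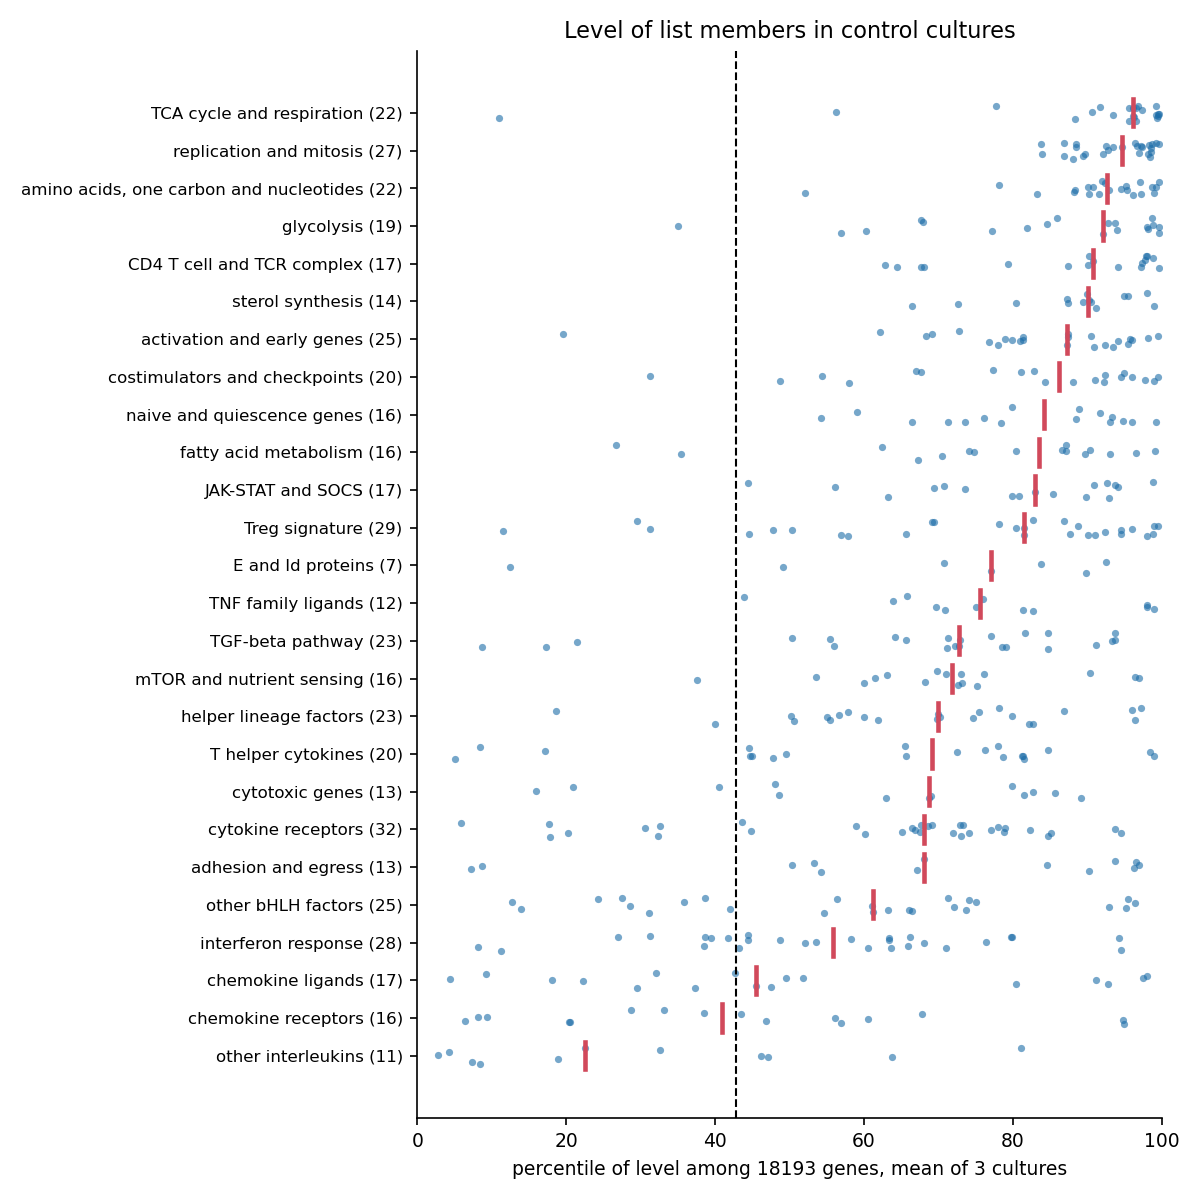
Percentile of level (mean of the 3 cultures, among 18193 genes) of every measured member of the 26 gene lists, 1 point per gene, with the list median as a red bar and the number measured in brackets; vertical position within a row is arbitrary. The dashed line marks the chemosensory level at the 42.8th percentile, and medians run from 22.6 for other interleukins to 96.2 for the TCA cycle and respiration.

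On their brightest probe sets, genes of the TGF-β pathway had signals from receptor to feedback. Of 23 measured genes 20 lay above the chemosensory level (57.2% of all genes). Of the 20, 0 were spread at least 2-fold (2.46% of all genes above the level). With the median probe set of a gene, 14 of the 23 lay above the level, and fewer of all genes did too. The count of 20 therefore depends on the probe set rule. Skil, which encodes the SMAD repressor SnoN, had 10.86, 10.96 and 10.89 on its brightest probe set. The other Skil probe set averaged 7.04. With the median probe set the Skil percentile was 73.3 in place of 93.3. Itgav, a chain of integrins that release active TGF-β (10.79, 11.02 and 11.11), was at the 93.7th percentile, whereas its partner Itgb8 was at the 8.75th. Smad4, the common SMAD, was at the 91.2nd percentile and the receptor SMAD genes Smad2 and Smad3 at the 78.5th and 64.2nd. Smad7, the inhibitory SMAD, had 8.10, 8.51 and 8.45, and the other inhibitory SMAD gene Smad6 was at the 17.3rd percentile. Tgfb3 was at the 21.5th.

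In the JAK-STAT and SOCS list, 17 of 17 measured genes lay above the chemosensory level. The 3 brightest, Socs2, Pim1 and Cish, are known to be induced through STAT5, but so is Socs1, one of the dimmest. Socs2 had 12.60, 12.88 and 12.45, Pim1 had 10.96, 11.03 and 11.16, and Cish had 11.04, 10.95 and 10.98 with an SD of 0.04. Stat5a was at 10.33, 9.98 and 10.65. Socs1, an inhibitor of interferon and IL-2 signals, had 7.56, 7.77 and 7.38. Socs3, an inhibitor of IL-6 signals, was the 1 member spread at least 2-fold, with 7.93, 9.17 and 7.47. Stat2 (44.4th percentile), Jak3 (56.1st) and Socs1 (63.3rd) were lowest.

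Genes that TCR signals induce were bright. Of 25 measured, 24 lay above the chemosensory level, with a median percentile of 87.2. Nfkbia, the NF-κB inhibitor that NF-κB itself induces, had 13.37, 13.18 and 13.52. Jund, an AP-1 subunit, was at the 96.0th percentile. The TCR-induced receptor genes Nr4a3 (12.17, 12.23 and 12.36) and Nr4a1 (11.24, 11.40 and 11.38) differed little. Egr2 (10.31, 9.89 and 9.84) and Egr3 (11.17, 10.05 and 10.23), zinc finger factors of the same response, were highest in culture 1, and Egr3 was the 1 member spread at least 2-fold. Fosb was at the 19.5th percentile, Fosl1 at the 62.1st and Fosl2 at the 68.3rd. Highest in culture 1 were 12 of the 24 (35.7% of all genes), and lowest in culture 2 were 17 (44.7%), with a median deviation of -0.16 from each gene's mean.

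Genes of naive and resting cells also had signals. All 16 measured lay above the chemosensory level, with a median percentile of 84.2. Btg1, an antiproliferative gene, had 13.05, 12.90 and 12.97, and Bach2, a repressor that preserves naive and Treg cells, had 11.45, 11.37 and 11.59. Klf2, which drives the genes of recirculating cells, had 6.43, 8.68 and 6.19, a 5.61-fold range with culture 2 high. Klf3, a related repressor, was also highest there (8.11, 9.21 and 8.43). S1pr1, a target of Klf2, ranged over 0.36. Il7r was lowest in culture 2.

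Cytotoxic genes were partly present, 10 of 13 above the chemosensory level (57.2% of all genes). Gzmb, which encodes granzyme B, had 9.34, 9.77 and 8.98, while Prf1, perforin, lay close to the level at 5.97, 5.98 and 5.93. Ctsw (89.2nd percentile) and Nkg7 (85.7th), of cytotoxic granules, were the brightest, and Gzmk, Gzma and Gzmc the lowest (15.9th, 20.9th and 40.5th). Klrd1, which encodes the NK receptor chain CD94, was highest in culture 2 (7.13, 8.79 and 6.68). Its partner Klrc1 and the CD8 chain genes were highest there too, and the summed intensity of the NK markers was 139, 187 and 120.2 and that of the CD8 markers 178, 209 and 139.9 in cultures 1, 2 and 3. Their part in the culture 2 values was not tested.

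Genes of energy metabolism were among the brightest on the array. Glycolysis genes had a median percentile of 92.1, and 18 of 19 measured lay above the chemosensory level. Pgk1 (13.74, 13.67 and 13.65) and Ldha, lactate dehydrogenase A (13.61, 13.46 and 13.57), were within 0.15 across cultures. Slc2a1, the glucose transporter GLUT1, had 11.07, 10.97 and 11.03, Pkm, pyruvate kinase, had 11.07, 10.94 and 10.96, and Hk2, the inducible hexokinase, had 10.67, 10.41 and 10.94. Slc16a1, the lactate transporter MCT1, was at the 98.2nd percentile, and Slc16a3, the transporter MCT4 of glycolytic tissues, was below the chemosensory level (5.12, 5.06 and 4.74). Aldoc, the brain-type aldolase, was the 1 member spread at least 2-fold (7.23, 7.81 and 6.64), and with the median probe set its percentile was 24.5 in place of 60.3.

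Of the 26 lists, mitochondrial genes had the smallest median SD. In the TCA cycle and respiration list 21 of 22 measured genes lay above the chemosensory level, 18 were in the top 10% of genes, 0 were spread at least 2-fold, and that SD was 0.07 (0.13 over all genes). Cox5a, a cytochrome c oxidase subunit, had 13.39, 13.41 and 13.42, and Cycs, cytochrome c, had 13.17, 13.26 and 13.26. Ppargc1a, the coactivator of mitochondrial biogenesis in muscle and fat, was the exception at 3.35, 3.43 and 3.63, and its relative Ppargc1b was at the 56.2nd percentile.

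Genes of biosynthesis were bright as well. All 22 measured genes of amino acids, one-carbon units and nucleotides lay above the chemosensory level, 17 in the top 10%, led by Tkt, a transketolase (99.6th percentile), Odc1, of polyamine synthesis (99.3rd), and Phgdh, of serine synthesis (12.77, 12.76 and 12.69). Slc7a5, the leucine transporter LAT1, had 10.89, 10.68 and 10.88. Mthfd2, a mitochondrial folate enzyme, had 11.06, 11.30 and 11.50. Tyms (52.1st), Slc1a5 (78.2nd) and Asns (83.3rd) were lowest. In the fatty acid list, 14 of 16 lay above the level. Scd2 and Acly, of lipid synthesis, were at the 99.1st and 96.5th percentile, and Fasn, fatty acid synthase, had 10.30, 10.36 and 10.53. Cpt1a, the gatekeeper of fatty acid oxidation, had 7.53, 7.63 and 7.26, and Pparg (26.7th) and Ppara (35.5th) were below the level.

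Nutrient sensing genes lay above the level in 15 of 16 cases. Ddit4, an mTOR brake induced by stress (11.94, 11.55 and 11.91), and Rheb, the mTOR activator (11.53, 11.75 and 11.55), were the brightest, and Deptor the dimmest (37.6th percentile). Pik3ip1, an inhibitor of PI3 kinase that resting T cells express, was the 1 member spread at least 2-fold, highest in culture 2 (5.98, 7.44 and 5.91).

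Genes of DNA replication and mitosis were bright and differed little. All 27 measured replication and mitosis genes lay above the chemosensory level, with Plk1, a mitotic kinase, lowest at the 83.8th percentile, and 0 were spread at least 2-fold. Mki67, the proliferation marker Ki-67, had 12.10, 12.01 and 11.62, and Mcm5, of the replicative helicase, had 12.34, 12.38 and 12.20. Pcna, the DNA polymerase clamp, had 13.59, 13.64 and 13.48. The median SD of the list was 0.09. Lowest in culture 3 were 14 of 27 (30.1% of all genes) and highest in culture 2 were 16 (30.7%), with median deviations of -0.05 and 0.07.

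Sterol synthesis differed from the rest of metabolism in its spread. All 14 measured genes were above the chemosensory level, with a median percentile of 90.1. In 13 of the 14 culture 1 was the lowest (25.2% of all genes), and in 13 of the 14 culture 3 was the highest (33.6% of all genes). The median SD was 0.32, against 0.13 over genes above the level, although 0 of the 14 were spread at least 2-fold. Hmgcs1, an early enzyme of the pathway, had 11.71, 12.36 and 12.42. Sqle, squalene epoxidase, had 10.07, 10.52 and 10.67. Fdps (10.88, 11.63 and 11.58) and Idi1 (12.37, 12.98 and 13.00), of isoprenoid synthesis, also had culture 1 apart from the other two. Dhcr7, the last step to cholesterol, was the member not lowest in culture 1 (8.49, 8.41 and 8.59), Fdps the member not highest in culture 3, and Srebf1, an SREBP gene, ranged over 0.13. In intensity, culture 3 had 1.63 times the level of culture 1 for Hmgcs1 and 1.51 times for Sqle. No cause of the order was tested.

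These genes are known to be switched on together by SREBP factors, which bind sterol regulatory elements with the help of NF-Y at CCAAT boxes. RefSeq promoter windows (GRCm38.p6, from 250 bases before to 50 after a gene start) were given for 11 of the 14. A CCAAT box (letters CCAAT, either strand) was in the windows of 11 of 11. Of the 27025 genes with a window 41.1% have one, and 37.4% of all 32851 windows hold one. The sterol element core TCACNCCAC was in 1, Hmgcs1, against 1.44% of all genes with a window. No match says only that these letters are not in the window. Stretches upstream of the start are shown for the 4 members with a match that had the widest range, because these genes had nearly the same order across cultures. Capitals mark CCAAT boxes (ATTGG on the opposite strand) and, in Hmgcs1, the element TCACCCCAC.
Hmgcs1 (chr13:119690101-119690332, + strand): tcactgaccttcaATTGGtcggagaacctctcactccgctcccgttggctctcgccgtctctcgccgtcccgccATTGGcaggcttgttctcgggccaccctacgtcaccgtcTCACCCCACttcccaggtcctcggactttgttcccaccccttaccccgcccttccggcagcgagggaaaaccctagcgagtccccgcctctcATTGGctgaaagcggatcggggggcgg
Mvd (chr8:122443423-122443471, - strand): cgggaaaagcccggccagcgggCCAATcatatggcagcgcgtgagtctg
Msmo1 (chr8:64733607-64733655, - strand): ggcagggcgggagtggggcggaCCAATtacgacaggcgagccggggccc
Lss (chr10:76531521-76531569, + strand): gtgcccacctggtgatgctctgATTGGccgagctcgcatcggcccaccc
A match is a description of the sequence and not a measured binding site. Mvd, Msmo1 and Lss, all enzymes of the pathway, had 7.48, 8.06 and 8.17, 9.99, 10.51 and 10.67, and 8.89, 9.32 and 9.53.

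Interferon response genes spread most of all lists, with culture 2 high and culture 3 low. Of 28 measured, 20 lay above the chemosensory level, and 9 of these were spread at least 2-fold, beside 2.46% of all genes above the level. In 15 of the 20 culture 2 was the highest (30.7% of all genes) and in 15 culture 3 was the lowest (30.1%). The median deviation from a gene's mean was -0.01, 0.42 and -0.45 in cultures 1, 2 and 3. Ifitm3, a membrane protein that blocks virus entry, had 7.07, 9.11 and 5.62, an 11.2-fold range, and its neighbour genes Ifitm1 (7.98, 9.83 and 7.22) and Ifitm2 (7.47, 8.20 and 7.06) had the same order. The GTPase genes Gbp2 (8.90, 9.63 and 8.02), Iigp1 (7.98, 8.58 and 7.10), Gbp3 (6.24, 7.24 and 5.87) and Igtp (11.16, 11.65 and 10.61), which IFN-γ induces, did as well. Ifih1, the RNA sensor MDA5 (8.27, 7.10 and 7.46), and Usp18, a brake on interferon signalling that averaged just above the chemosensory level (6.35, 5.87 and 4.33), were highest in culture 1.

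Genes typical of type I interferon were mixed. Bst2, which encodes tetherin, was at the 79.9th percentile, and Ifit2, Oas1a and Rsad2 also lay above the chemosensory level. Ifi27l2a, an interferon-induced gene by its name, had 10.78, 11.26 and 10.13 (92.4th percentile). Several others were dim. Irf7 had 4.69, 4.85 and 4.67, Ifit1 had 4.95, 4.54 and 3.90, and Mx1 and Oasl2 were at the 11.3th and 8.10th percentile, all below the chemosensory level. Ifng was highest in culture 2 by 0.48 over culture 1 and 0.50 over culture 3, and Irf1, a factor induced by IFN-γ, had 9.14, 9.56 and 8.82. Whether the Ifng differences bear on these genes was not tested.

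The interferon-stimulated response element (ISRE) is the site that IRF and STAT factors bind in such promoters. Its core is the letters TTTC, any 2 bases and TTTC again, on either strand. Of the 17 members above the level that have a window, 11 held it. The share was 3.99% of all genes with a window, and 0 of 11 sterol genes held it. Stretches are shown for the 4 members with a match before the start that had the widest range, with the core in capitals (read as GAAA, 2 bases and GAAA on the opposite strand, with 2 overlapping matches in Gbp3).
Gbp2 (chr3:142620582-142620635, + strand): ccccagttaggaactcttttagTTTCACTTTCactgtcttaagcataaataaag
Gbp3 (chr3:142559983-142560036, + strand): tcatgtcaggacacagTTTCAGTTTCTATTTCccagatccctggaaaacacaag
Ifitm2 (chr7:140955976-140956029, - strand): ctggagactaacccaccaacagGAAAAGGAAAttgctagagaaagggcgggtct
Igtp (chr11:58199500-58199553, + strand): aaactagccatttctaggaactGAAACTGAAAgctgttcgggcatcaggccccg
The list was made of known interferon genes, and no cause of their order was tested.

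**Figure D4:**
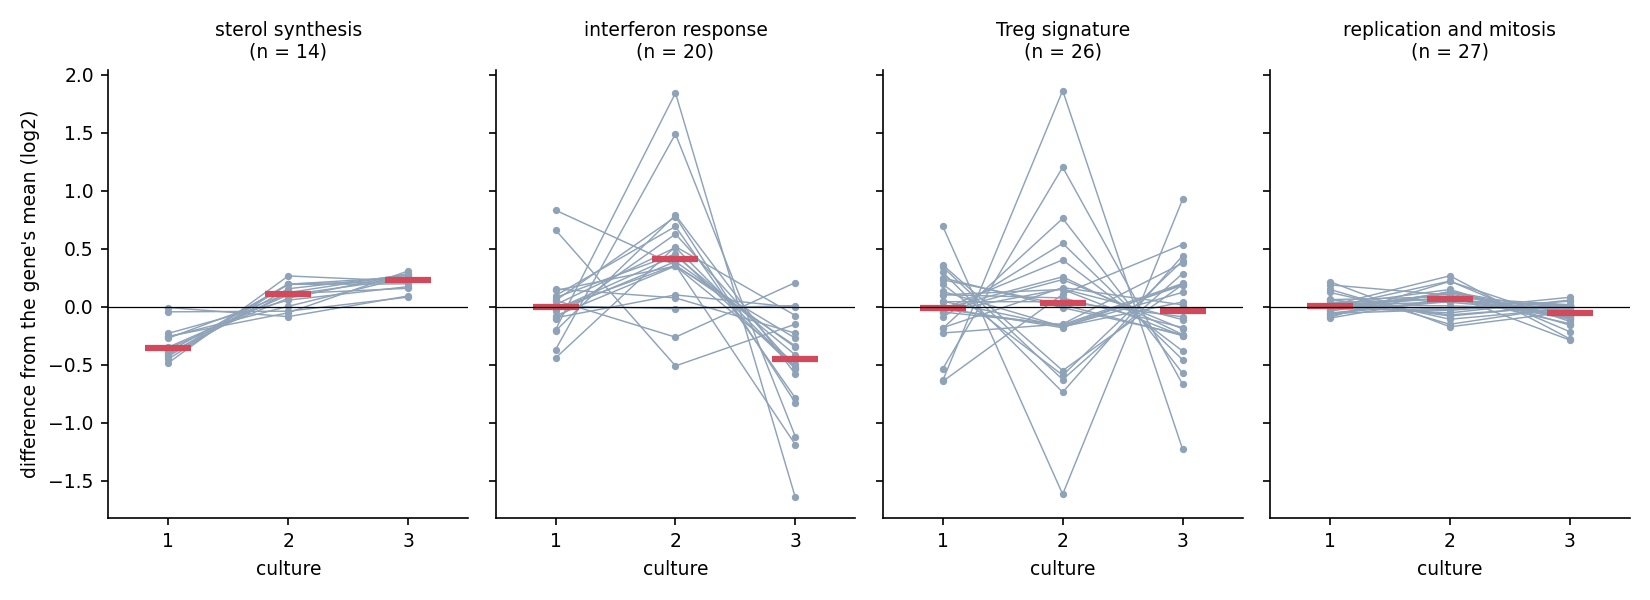
Difference of each gene from its own mean over the 3 cultures (log2), 1 line per gene above the chemosensory level, for sterol synthesis (14), interferon response (20), the Treg signature (26) and replication and mitosis (27); red bars are list medians. Sterol genes sit low in culture 1 (median -0.35) and high in culture 3 (0.23), interferon genes high in culture 2 (0.42) and low in culture 3 (-0.45), and replication genes stay near 0.

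Over the whole array, the cultures differed in few genes, and most often culture 2 stood apart. Of 10415 genes above the chemosensory level, 256 (2.46%) were spread at least 2-fold and 38 at least 4-fold. Cultures 1 and 3 differed at least 2-fold in 32 genes, cultures 1 and 2 in 140 and cultures 2 and 3 in 213. Without culture 2 the count of genes spread at least 2-fold was 29, without culture 3 it was 142 and without culture 1 it was 209. A culture was called apart, the odd culture, for a gene when its gap to the middle value was at least 2 times the other gap. Culture 2 was apart in 139 of the 256 genes (82 high, 57 low), culture 3 in 18 (2 high, 16 low), culture 1 in 11 (11 high) and none in 88. With the median probe set of a gene, culture 2 was apart in 98 genes, culture 1 in 32 and culture 3 in 14, so the order of cultures 1 and 3 turned. For culture 3 the count was 10 with the mean of all probe sets of a gene and 11 with quantile normalization. The B cell markers, 0 of 10 above the level on average, had summed intensities of 270.1, 322 and 278 in cultures 1, 2 and 3, the myeloid markers 365, 375 and 386 and the stromal and endothelial markers 1148, 391 and 1398. Without Pdpn the other 8 stromal and endothelial markers summed to 217, 261 and 232. Their part in the spread was not tested.

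**Figure D5:**
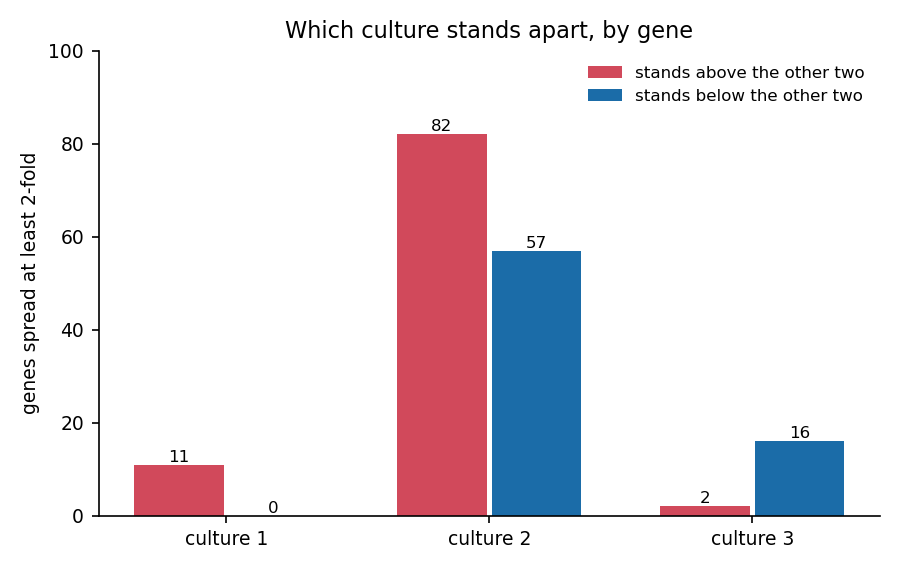
Number of genes spread at least 2-fold in which 1 culture stands above (red) or below (blue) the other two, for each culture. Culture 2 accounts for 82 and 57 genes, culture 3 for 2 and 16, and culture 1 for 11 and 0.

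The 12 named genes with the largest SD were Itih5, Il9, Drc1, Ifitm3, Pdpn, Gpr83, Mpzl2, Pdlim4, Cd5l, Pfn2, Ebi3 and Klf2. Itih5, a hyaluronan-binding inter-α-trypsin inhibitor chain, had 6.90, 9.24 and 5.37, and Drc1, of motile cilia, had 6.55, 8.91 and 5.42. Pdlim4 (4.86, 7.66 and 5.33) and Pfn2, a profilin (7.69, 9.64 and 6.89), were also highest in culture 2. Mpzl2, an adhesion protein (7.62, 4.86 and 7.50), and Cd5l, a macrophage-type secreted protein also known from Th17 cells (8.38, 5.90 and 8.44), were lowest there. At the other end, the 6 genes with the smallest SD were Ncoa4, Rpl4, Eipr1, Rab13, Neurl3 and Acd. Their ranges were at most 0.00733 log2 units, and Ncoa4, a ferritin receptor, read 9.97 in each culture.

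Smaller sets of genes set cultures 1 and 3 apart, and these genes were chosen after their values were seen. Culture 1 was above the others in the metallothionein genes Mt1 (9.59, 7.47 and 7.33) and Mt2 (9.18, 7.29 and 7.69), which bind zinc and copper. It was also above them in Mir155hg, the host gene of miR-155 (9.52, 8.38 and 8.70), and in the activity-induced factor gene Npas4 (7.15, 6.20 and 6.09). Culture 3 was below the others in genes that include interferon-induced ones outside the list. Trim30a had 8.60, 8.82 and 7.68, Parp14 had 8.12, 8.42 and 7.29, and Sp100 had 7.63, 8.00 and 6.82. Usp18 was also lowest there. Lgals3, galectin-3, was likewise lowest in culture 3 (10.66, 11.14 and 9.46). With 1 culture of each age, no test separates these differences from chance differences between cultures.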

How the data were processed

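RNA of the 3 control cultures was hybridised to Affymetrix mouse expression arrays, 1 per culture. The authors deposited 1 intensity per probe set, made with RMA per the submitters' processing notes. Its version and settings are not stated there. The deposited intensities were on a linear scale, and log2 was taken here with no offset. The table had 45101 probe sets. The 64 Affymetrix controls were left out, 34958 probe sets named 1 gene, 932 several and 9211 none, and those with 1 gene were used. The brightest over the control arrays stood for each gene. RMA commonly makes the arrays' distributions alike, in which case a shift of all genes together cannot be seen. The number of arrays, 3, limits the precision.

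With 1 group no test was made, and levels, ranks, SDs and ranges are descriptions. A count of genes above the chemosensory level is read beside the share over all genes (57.2%). Counts of genes spread, or highest or lowest in a culture, are read beside the share over genes above that level. Shares that apply to every list are not repeated each time. Genes named are key genes of each list, up to 3 brightest and 3 dimmest members of each list, members spread at least 2-fold, and the 12 brightest, 12 most and 6 least spread genes of the array. Others were named after their values were seen. The cultures and gene lists were chosen with earlier results of these data known. Alternatives changed the probe set rule, scaling, level, range and cultures used. Python 3.11.15, numpy 2.4.6, pandas 2.3.3 and matplotlib 3.10.9 were used, and the calculations were tested on simulated data. Promoter windows came from RefSeq (GRCm38.p6). Some genes of the lists are not reported here.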

Additional observations from a re-analysis of the deposited data

How the results depend on the processing

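With a range of at least 1.5-fold in place of 2-fold, 991 genes were spread in place of 256. Leaving out 1 culture gave 29 to 209 genes spread at least 2-fold, the lowest without culture 2, and a Foxp3 range of 0.13 to 1.87, again lowest without culture 2. Fewer cultures can only narrow a range. The count of genes above the chemosensory level was 9146 to 11384 over all alternatives, against 10415. Sterol synthesis members lowest in culture 1 numbered 10 with the median probe set and 12 to 14 otherwise, and interferon members highest in culture 2 numbered 15 to 17, alternatives that were chosen after seeing the data. These include settings with 1 culture left out. There only 2 cultures remain, so the shares of 25.2% and 30.7% over all genes do not apply. Of the percentiles of key genes under alternatives, 496 moved by less than the spread between cultures and 197 by more. The latter were all under another rule for probe sets or ranking, so most percentiles depend on that rule. Of 77 key genes, 64 moved with the mean of all probe sets, 70 with the median probe set and 63 with ranks among all probe sets. Leaving out 1 culture moved no key gene, but that was nearly fixed in advance, since the yardstick was the spread of the same cultures. No paired analysis was possible because the values come from a single group and no test. Dim signals limit what can be said of genes below the chemosensory level.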
